A study of Oncorhynchus gorbuscha with 76 samples.

Results

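The genes of the cilium and of the sperm flagellum were followed through the return migration of the pink salmon (Oncorhynchus gorbuscha), a fish that spawns in a single season and then dies. They were taken by name: every gene of the deposited tables whose symbol begins with cfap, dnah, dnai, dnal, dnaaf, ift, bbs, rsph, tekt, drc, odad, odf, spef, spag, spata, ropn, tctn, mks1, ttc2, ak7, hydin, lrrc6 or zmynd, leaving out spag9b. This gave 111 genes of 40756, or of the 8117 that carry a symbol other than a LOC number. Duplicated salmonid copies that the tables list under a LOC number are not among them, and reads of a gene and a near-identical copy may have been shared between both.

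Poly(A)-enriched RNA had been sequenced from skeletal muscle, head kidney and gonads of fish of both sexes, taken in the ocean, in the river or at spawning. The labels name no agent or allele. In females there were 4 ocean, 4 river and 5 spawning ovaries, and 4 libraries of each stage for head kidney and for muscle. In males there were 5 testes of each stage, 4 head kidneys of each stage, and 4 ocean, 5 river and 3 spawning muscles. The labels give no age, and each fish is 1 library per tissue, so the stages are different fish and not the same animal followed over time.

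A motile cilium or flagellum is built on an axoneme, a ring of microtubule doublets around a central pair. Outer and inner dynein arms slide the doublets and are preassembled in the cytoplasm by dedicated assembly factors. Radial spokes and the nexin-dynein complex regulate them, and proteins inside the doublets stiffen the tube. Intraflagellar transport (IFT) trains and the BBSome carry cargo along cilia of both the motile and the non-motile kind, and transition zone proteins gate their base. In fishes the male germ cells build a flagellum as they become sperm, and the kidney tubule carries motile cilia in teleosts such as zebrafish. In human and mouse the outer arms of sperm use dynein heavy chains other than DNAH5 and DNAH9, which serve the cilia of epithelia.

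By role the set held 10 outer arm and docking genes, 8 inner arm genes, 9 dynein assembly factors, 12 radial spoke genes, 2 nexin-dynein genes, 9 central pair genes, 8 doublet inner proteins, 10 IFT genes, 6 BBSome and chaperonin genes, 2 transition zone genes, 15 genes named for sperm parts or spermatogenesis and 20 others. The first 7 of these roles are called axonemal here and hold 58 genes. The name rule also caught genes known for other work, among them spata5 and spata5l1, which encode AAA-type ATPases.

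Libraries held 12719694 to 29286325 estimated counts. Skeletal muscle markers summed to 26330 CPM (a library's counts scaled to a common total, here after TMM scaling within the tissue and sex) or more in every muscle library and to at most 138.3 in any other tissue, and the 3 matched blood and immune markers summed to 593.5 to 3669 in head kidney. The 5 matched oocyte markers summed to 0.187 to 1.63 in the ocean ovaries and reached 52.4 in a single spawning ovary, so the oocyte markers did not mark these libraries as ovary. In testis, the 14 matched germ cell markers summed to 6274 to 13200 in the ocean, 8395 to 17520 in the river and 18.2 to 41.5 at spawning, while the 5 testis somatic markers went from 65.8 to 110 in the ocean to 15460 to 41560 at spawning. In bulk tissue fewer cells of a type and less RNA per cell cannot be told apart.

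The members' summed level was far higher in ocean and river testes than in any other library (the plot of summed counts by stage). As CPM of the library total, all members together took 22960 ± 3406 in ocean testes (SD, n = 5), 35790 ± 4365 in river testes (SD, n = 5) and 664 ± 199 in spawning testes (SD, n = 5). The lowest ocean testis, at 19670, lay far above the highest spawning testis, at 942.5. Ovaries held 1332 ± 928 in the ocean (SD, n = 4), 829.4 ± 259 in the river (SD, n = 4) and 1530 ± 1419 at spawning (SD, n = 5), with wide overlap. Head kidneys ranged from 346 to 1571 in females and from 347 to 1480 in males. Muscle ranged from 150 to 830.4, and at spawning male muscle, at 712.3 to 753.6, lay above male head kidney, at 347.3 to 412. Without the most abundant member of each tissue, the spawning male means were 327.5 in muscle and 315.3 in head kidney.

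**Figure D1:**
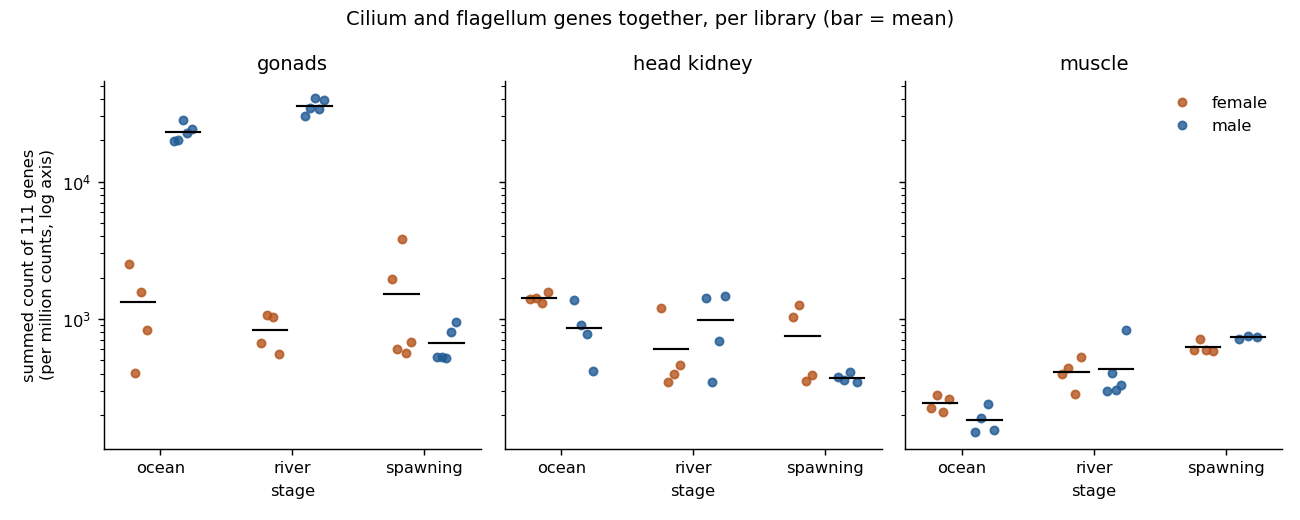
Summed level of all members as CPM of each library total (log axis), by tissue and stage, with females in orange, males in blue and the group mean as a bar. Ocean and river testes sit at 19670 to 40820, and spawning testes, at 518 to 942.5, fall within the range of the ovaries.

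In the testis nearly every gene of the flagellum that was tested fell between the ocean and spawning. Of 107 members tested, 102 were lower at spawning and 2 were higher, against 43.2% of all genes tested that were lower and 40.7% that were higher. The members' median log2 fold change was -5.26, beside -0.12 over all genes. The test was edgeR's quasi-likelihood test with Benjamini-Hochberg adjustment, with an adjusted p under 0.05 taken as a call. All 13 germ cell markers tested fell in the same comparison, with a median of -11.99, and the part that germ cell content had in the members' fall was not tested.

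The largest fall was that of dnaaf1, an assembly factor of dynein arms, from 193 CPM in the ocean to 0.0527 CPM at spawning (log2 fold change -11.68, SE 0.46, adjusted p = 6.33e-12). Levels here and below are CPM after TMM scaling within the tissue and sex. Where testis and ovary are compared directly, the means are CPM after TMM scaling over both sexes in the joint fit. The nexin-dynein subunit gene drc3 stood at 358, 392, 558, 508 and 492 CPM in the 5 ocean testes and at 585, 1074, 1202, 706 and 831 CPM in the 5 river testes. At spawning it was at 0, 0, 0.0594, 0.354 and 0.548 CPM. The spawning values thus lay far below all others, without overlap, and the log2 fold change against the ocean was -11.19 (SE 0.63, adjusted p = 2.70e-10). zmynd10, another assembly factor of dynein arms, fell from 251 to 0.113 CPM, and ak7b, an adenylate kinase of motile cilia, from 393 to 0.221 CPM. dnai2b, an outer arm intermediate chain, fell from 203 to 0.122 CPM.

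Among the outer arm genes 7 of 10 fell, with odad2, a docking complex gene, at a log2 fold change of -8.54. All 8 inner arm genes fell, by a median of 8.15 on the log2 scale, the heavy chains dnah2 and dnah1 by 9.26 and 9.21. The 9 assembly factors all fell, from dnaaf1 to dnaaf4, which went from 32.4 to 21.7 CPM with overlapping groups (log2 fold change -0.58, adjusted p = 0.00868). All 12 radial spoke genes fell by a median of 7.44, led by ak7b and by cfap91, a spoke base protein, at -10.23. rsph9, of the spoke head, stood at -8.98, and rsph4a at -3.57. Each of the 9 central pair genes fell, spef2 by 9.29, cfap221 by 8.93, hydin by 6.85 and spag6 by 6.88. The 7 doublet inner proteins tested fell by a median of 7.30, cfap45 by 8.35 and cfap53 by 8.25.

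The transport genes fell too. All 10 IFT genes were lower, within a narrow band from -4.70 (ift140, of the retrograde complex) to -3.33 (ift88, of the anterograde complex). ift88 was at 158, 219, 253, 183 and 212 CPM in the ocean, at 201, 269, 372, 256 and 292 CPM in the river and at 19.2, 18.8, 24.3, 19.0 and 20.7 CPM at spawning. The spawning testes thus lay below all others but held a measurable level in each fish. All 6 BBSome and chaperonin genes fell, with a median of -3.40 and bbs7 at -5.15, and so did the transition zone genes mks1 (-5.26) and tctn2 (-3.45). The difference between the axonemal and the transport genes was not tested.

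**Figure D2:**
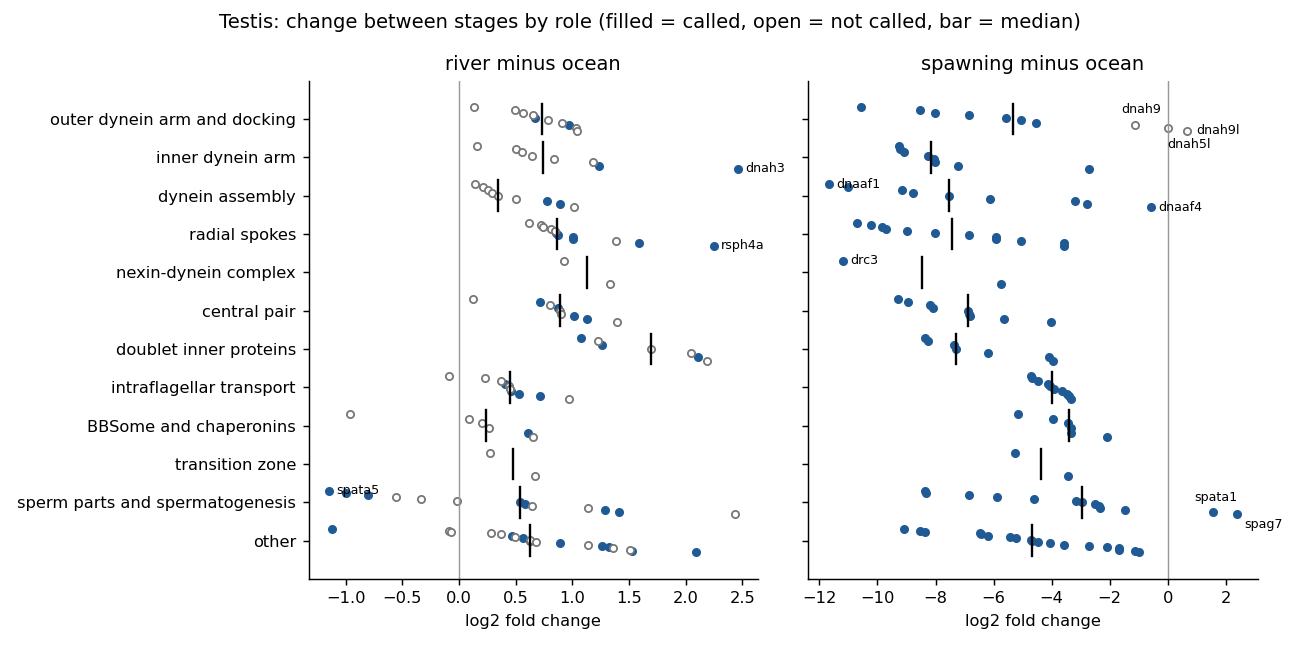
Log2 fold change of each tested member in the testis by role, river minus ocean at left and spawning minus ocean at right, with called genes filled, uncalled genes open and the median of each role as a bar. At spawning the axonemal roles have medians from -8.47 to -5.32 and the IFT genes -3.99, while dnah9, dnah5l and dnah9l lie between -1.11 and 0.68.

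A few members were not called lower. The heavy chain gene dnah9 was at 1.95, 0.321, 3.24, 3.18 and 2.69 CPM in ocean testes and at 0, 0.119, 0.0594, 0.212 and 4.81 CPM at spawning. It was not called (log2 fold change -1.11, adjusted p = 0.325). The groups overlapped only through spawning fish 10, at 4.81 CPM, and the other spawning testes lay below every ocean testis. dnah5l and dnah9l, each under 3 CPM in every testis, had log2 fold changes of -0.01 and 0.68 and were not called either. The members that rose were spag7, from 10.9, 15.8, 9.99, 10.9 and 12.4 CPM in the ocean to 60.9, 71.3, 66.7, 66.0 and 50.3 CPM at spawning (log2 fold change 2.39, SE 0.22, adjusted p = 5.10e-08), and spata1, which rose by 1.54 (adjusted p = 0.00900) although fish 6 was at 0.714 CPM, below every ocean testis.

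Spawning testes were not alike. In 28 of the 57 axonemal genes tested, fish 9 and 10 had the 2 highest levels of the 5, and fish 10 had the highest in 48. odf3b, named for the outer dense fibres of the sperm tail, was at 1.56, 0 and 0.119 CPM in fish 6, 7 and 8 and at 44.6 and 38.7 CPM in fish 9 and 10. tekt2, a tektin of the doublets, was at 0.130, 0, 0.178, 8.06 and 15.7 CPM in the same order. Both genes still fell against the ocean, where odf3b was at 60.2 to 151 CPM and tekt2 at 53.9 to 115 CPM, with adjusted p = 0.0367 and 0.00120. The call of odf3b was lost in 4 of 21 alternatives, with adjusted p from 0.0506 to 0.0675.

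Between the ocean and the river the changes were smaller and mostly upward. Of 107 members, 36 were higher in river than in ocean testes and 4 were lower, against 25.8% and 13.4% of all genes. The median log2 fold change was 0.71, beside 0.25 over all genes. The mean was highest in the river for 94 of the 107 members, or 87.9%, and for 28.4% of all genes tested. The inner arm heavy chain dnah3 was at 129, 229, 383, 242 and 296 CPM in the ocean and at 947, 918, 1888, 1330 and 1942 CPM in the river. Every river testis lay above every ocean testis (log2 fold change 2.46, SE 0.52, adjusted p = 0.00297). cfap276, a doublet inner protein, went from 21.1 to 91.3 CPM (log2 fold change 2.11, adjusted p = 5.50e-04), and rsph4a from 51.6 to 246 CPM (2.25, adjusted p = 0.0439, lost in 14 of 21 alternatives).

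Doublet inner proteins had a median of 1.70, the highest of the 12 roles, with 3 of 7 called, and the river and ocean values did not overlap for any of the 7. Over all members 47 of 107 did not overlap, or 43.9%, beside 25.5% of all genes. Radial spoke genes rose in 6 of 12, central pair genes in 4 of 9, IFT genes in 4 of 10 and assembly factors in 2 of 9. The members that fell in the river were spata5 (log2 fold change -1.15), ttc27 (-1.12), spata13 (-0.99) and spata20 (-0.80). Germ cell markers fell in 4 of 13 and rose in none. The count of 40 called members ranged from 15, without river fish 4, to 58, without spawning fish 10. It was 67 in a fit of the ocean and river testes alone. Scaling by library size gave 15 higher and 6 lower, with a median of -0.015 over all genes. Of the 28149 genes tested, 5084 were then higher and 6563 lower. RLE factors gave 26 higher and 4 lower members, where 6784 genes were higher and 3959 lower. The members' share of called rises thus stood clearly above that of all genes under TMM scaling only. Their median was 0.44 by library size and 0.67 by RLE, where that of all genes by RLE was 0.196.

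Between the river and spawning 102 members fell and 1, spag7, rose, against 41.8% and 38.8% of all genes. Other cilium genes, listed outside the name rule, were counted in the same way. Of 44 other cilium genes tested, 42 fell and 2 rose from the ocean to spawning, and 23 rose and none fell from the ocean to the river. The doublet ruler gene ccdc39 fell from a range of 266 to 449 CPM in the ocean to 0.712 to 2.68 CPM at spawning. Those higher at spawning were pkd2, a channel of primary cilia, with a log2 fold change of 4.12, and cc2d2a, of the transition zone, at 0.69. Of the 5 ciliogenesis regulators tested all 5 fell, and rfx2, which encodes a transcription factor of ciliated cells and spermatids, went from 133 to 174 CPM in the ocean to 6.44 to 12.1 CPM at spawning.

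Compared directly with the ovary in the ocean, the testis was higher in 98 of 108 members and lower in 6, where 38.7% of all genes were higher and 40.4% lower. The widest margin was that of dnaaf9, an assembly factor, at 1348 CPM in testis and 15.7 CPM in ovary (log2 difference 6.42, SE 0.37, adjusted p = 1.48e-13). dnah1 and odad2 followed at 6.15 and 6.13, and ift88 stood at 3.66. The outer arm heavy chains went the other way. dnah5l had a mean of 1.14 CPM in testis and 39.8 CPM in ovary (-5.12, adjusted p = 4.87e-04), dnah9 of 2.34 and 57.8 CPM (-4.62, adjusted p = 0.00760) and dnah9l of 0.937 and 6.23 CPM (-2.71, adjusted p = 8.74e-06). For dnah9 and dnah5l the groups overlapped, because ovary fish 4 was as low as the testes. The other members that were lower in testis were spag7, spata1 and ttc22, at -1.54, -1.98 and -1.93.

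At spawning most calls lay the other way. Only spag7 and dnaaf4 were higher in testis, at 0.70 and 1.502, while 59 of 108 members were lower, against 21% of all genes that were lower and 19.3% that were higher. The groups did not overlap for 15 members, where 102 did not in the ocean. The share over all genes was not counted, so these counts are not read as a trait of the members. Calls over all genes were also fewer at spawning than in the ocean, where 38.7% were higher and 40.4% lower. The 61 calls became 46 without spawning ovary fish 3 and 66 without spawning ovary fish 2. dnah9 had a mean of 1.10 CPM in testis and 102 CPM in ovary, with overlapping groups (-6.50, adjusted p = 0.00261). cfap73 stood at -5.90 and spef2 at -5.74 (adjusted p = 2.57e-04). ift88, at 21.7 and 18.6 CPM, was not called (adjusted p = 0.371). The change from ocean to spawning itself differed between the gonads in 101 of 108 members, more negative in testis for 97 and more positive for dnah9l, spag7, spata1 and ttc22, where 32.7% of all genes were more negative and 36.9% more positive.

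**Figure D3:**
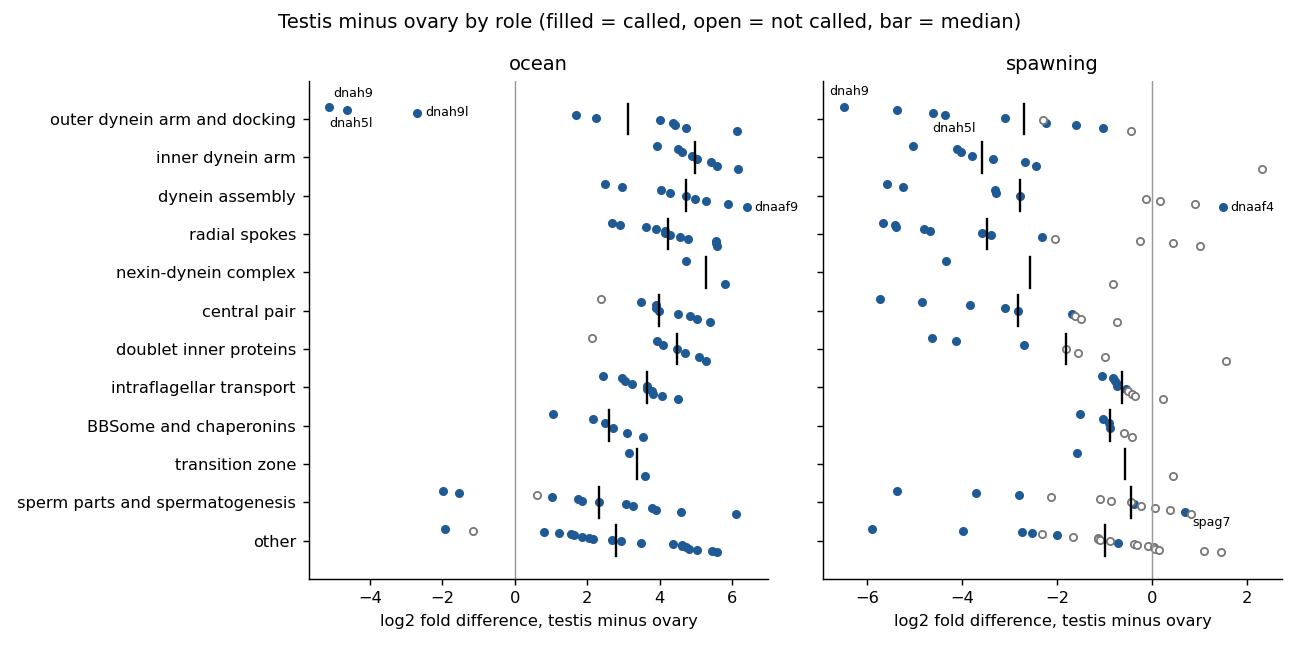
Log2 difference of each tested member between testis and ovary by role, in the ocean at left and at spawning at right, with called genes filled, uncalled genes open and the median of each role as a bar. In the ocean all roles have positive medians, and dnah9, dnah5l and dnah9l lie between -5.12 and -2.71. At spawning all 12 medians are negative.

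In the ovary the axonemal genes differed widely among fish of one stage. dnah9 was at 155, 0.853, 66.1 and 25.8 CPM in ocean fish 2, 4, 5 and 7, at 11.6, 51.5, 49.9 and 0.766 CPM in river fish 1, 7, 8 and 9, and at 151, 0.298, 385, 0.814 and 7.70 CPM in spawning fish 1 to 5. Each stage thus held fish above 50 CPM and fish under 1 CPM. The central pair gene spag6 was at 97.3, 0.284, 42.7 and 14.1 CPM in the ocean, at 9.18, 24.5, 22.5 and 1.32 CPM in the river and at 70.9, 2.32, 174, 1.75 and 6.30 CPM at spawning. It was highest in the fish that were highest for dnah9. hydin ranged from 2.91 to 49.96 CPM in the ocean and from 4.63 to 95.6 CPM at spawning.

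The fish were ordered much alike by the other members, axonemal and transport genes included. In the ocean fish 2 had the highest level of 54 of 56 axonemal genes tested, and fish 4 the lowest of 51. At spawning fish 1 and 3 were the highest pair for 54 of 56. Of the 18 transport and transition zone genes, fish 2 had the highest ocean level in 16, and spawning fish 1 and 3 were the highest pair in 16. The median SD within stages, on the log2 scale, was 1.39 over the 106 members tested in ovary and 0.37 over all genes. It was 1.93 for inner arm genes and 1.85 for radial spoke genes, and 0.48 for both the IFT and the BBSome genes. ift88 stayed between 11.2 and 30.1 CPM in all 13 ovaries. The oocyte marker sum was highest in spawning fish 3, which also had the highest dnah9. In ocean fish 2, with dnah9 at 155 CPM, the oocyte marker sum was 1.26 CPM. The part of oocyte content in the spread was not tested.

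**Figure D4:**
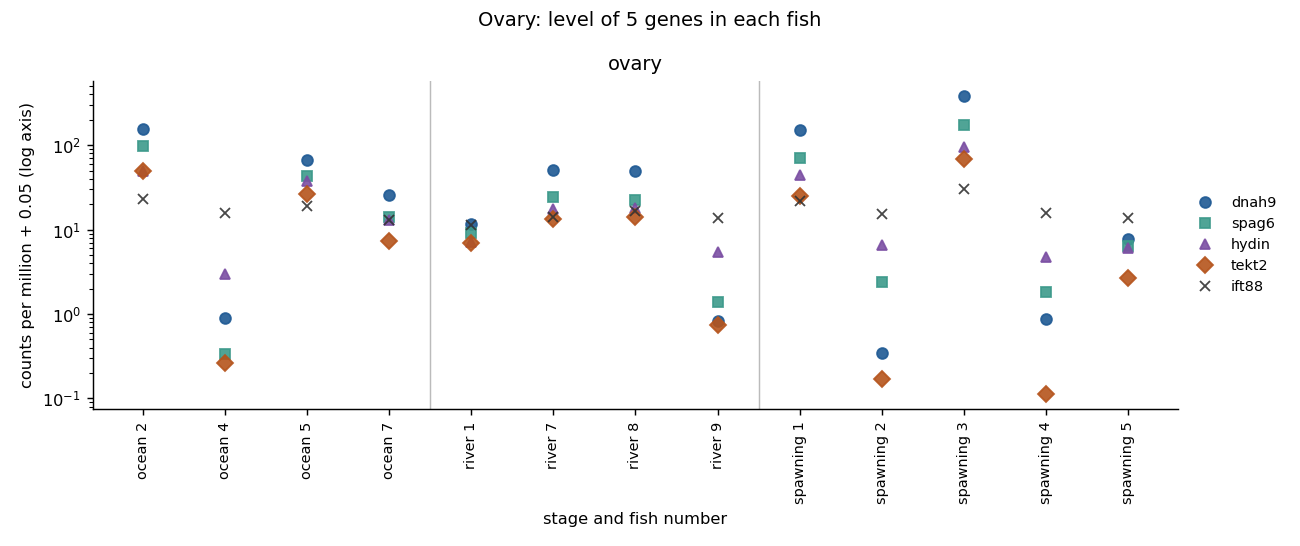
Level of dnah9, spag6, hydin, tekt2 and ift88 in each of the 13 ovaries (CPM plus 0.05, log axis). The 4 axonemal genes are high in ocean fish 2 and spawning fish 1 and 3 and low in ocean fish 4 and spawning fish 2 and 4, while ift88 stays between 11.2 and 30.1 CPM.

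Few ovary members passed the test. From ocean to spawning 4 of 106 fell and 1 rose, against 20% and 16.3% of all genes. The BBSome gene bbs4 fell from 7.04 to 8.59 CPM in the ocean to 2.16 to 5.27 CPM at spawning (log2 fold change -1.23, adjusted p = 0.00530). dnah9l fell by 1.58 (adjusted p = 0.00968), ttc27 by 1.13 (adjusted p = 8.93e-04) and spata5 by 0.82 (adjusted p = 0.0124), and spata2l rose by 0.51, a call lost in 5 of 19 alternatives. From river to spawning 4 fell and 3 rose (lrrc61, bbs1 and ift57), where 21% and 16.8% of all genes did. Scaling moved these splits: RLE factors gave 3 higher and 4 lower members from the ocean, and library size alone gave 6 and 4 from the ocean and 7 and 4 from the river, with all-gene medians of 0.03, 0.16 and 0.17. No member and no gene at all (0%) was called between ocean and river by edgeR, with 1 member and 2338 of all genes at an unadjusted p under 0.05, and DESeq2 called no member.

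In the head kidney dnah9 also differed widely among fish, and its values are given beside those of a renal tubule marker. In ocean females dnah9 was at 55.3, 46.8, 35.9 and 70.0 CPM and slc12a3, the sodium-chloride cotransporter of the distal tubule, at 368, 364, 270 and 471 CPM. In river females dnah9 was at 30.8, 0.144, 0 and 10.8 CPM and slc12a3 at 359, 0, 0.138 and 0.0668 CPM, so fish 1 was high in both and fish 9 in dnah9 alone. At spawning, females 1 and 2 had 22.1 and 30.9 CPM of dnah9 with 977 and 856 CPM of slc12a3, and females 4 and 5 had 1.17 and 0.0804 CPM with 0.194 and 0.0804 CPM. ift88, by contrast, stayed between 7.03 and 17.5 CPM in all 12 females.

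In males the high libraries were ocean fish 1 and 8 and river fish 2 and 6, with dnah9 at 56.0, 14.2, 30.9 and 35.4 CPM and slc12a3 at 211, 123, 238 and 318 CPM. Ocean fish 9 and river fish 3 were low in both. Ocean fish 6 and river fish 5 stood apart: dnah9 was at 0.0662 and 0 CPM and slc12a3 at 0.265 and 0.306 CPM, yet hydin was at 13.5 and 14.3 CPM and ak7a at 13.7 and 6.92 CPM. These libraries also had the most sycp1, a protein of meiotic chromosomes, at 141 and 28.6 CPM, where no other male head kidney exceeded 8.25 CPM. The 5 testis somatic markers summed to 1.52 and 316 CPM in them, the latter nearly all from star and hsd3b1. In the other male head kidneys they summed to between 1.94 and 3983 CPM, with the highest sum in ocean fish 9. star and hsd3b1 also reached 3719 and 2927 CPM in the head kidney of spawning female 4, so in this tissue that sum does not mark testis. insl3 and dmrt1, of the same list, were at most 0.115 and 0.287 CPM in any male head kidney. In ocean testes all 5 markers summed to only 65.8 to 110 CPM, beside 6274 to 13200 CPM of germ cell markers. Low values of the somatic markers are therefore not informative here. In the 4 spawning males dnah9 was at 0, 0.421, 1.67 and 0.0576 CPM and slc12a3 at 0, 24.2, 78.2 and 0 CPM. Fish 9, with 78.2 CPM of slc12a3, was the highest of these 4 for 44 of the 56 axonemal genes tested. Its hydin, at 1.87 CPM, was also the highest of the 4. The 15 tubule markers summed to 3.60 to 171 CPM in spawning males, against 4.11 to 1361 CPM in ocean males. The part that tubule or germ cell content had in the members' differences was not tested.

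**Figure D5:**
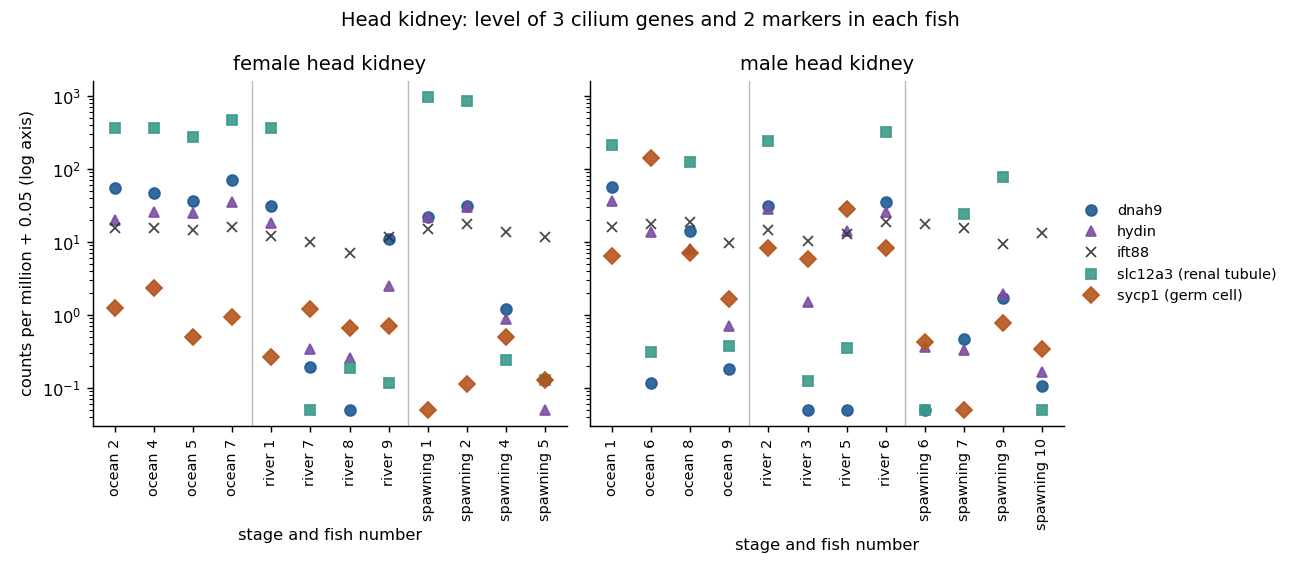
Level of dnah9, hydin and ift88, of the renal tubule marker slc12a3 and of the germ cell marker sycp1 in each of the 24 head kidneys (CPM plus 0.05, log axis), females at left and males at right. hydin is high where slc12a3 is at 123 CPM or more and also in ocean male 6 and river male 5, where sycp1 is at 141 and 28.6 CPM. In spawning male 9 slc12a3 is at 78.2 CPM and hydin at 1.87 CPM, both the highest of the spawning males. ift88 stays between 7.03 and 18.9 CPM.

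In female head kidney 3 of 106 members fell from ocean to spawning and 1 rose, against 3.15% and 4.77% of all genes. The transition zone gene tctn2 was at 7.78, 9.25, 5.67 and 11.03 CPM in the ocean and at 1.07, 1.82, 2.52 and 2.09 CPM at spawning, without overlap (log2 fold change -2.16, SE 0.51, adjusted p = 0.0261). bbs4 fell by 1.38 and ift140 by 1.22 (adjusted p = 0.0289 and 0.0425). spata13 rose from 12.2, 10.2, 10.6 and 10.96 CPM to 59.2, 25.1, 24.7 and 60.0 CPM (1.94, adjusted p = 0.00722). The calls of tctn2, bbs4 and ift140 were lost in 7, 7 and 12 of 18 alternatives. dnah9 had a log2 fold change of -1.94 and an adjusted p of 0.495. From river to spawning spata13 rose by 3.43 and bbs4 fell by 1.28, where 3.9% of all genes rose and 4.56% fell, and the bbs4 call was lost in 14 of 18 alternatives.

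In male head kidney 11 of 105 members fell from ocean to spawning and none rose, against 2.6% and 4.17% of all genes. cfap99 was at 8.12, 5.10, 6.10 and 0.0648 CPM in the ocean and had no count at spawning, a level at least 106-fold lower, taking 3 counts over the group as the floor (adjusted p = 0.0364). dnah10, an inner arm heavy chain, was at 28.4, 11.3, 10.0 and 1.36 CPM in the ocean and at 0, 0, 0.602 and 0 CPM at spawning (log2 fold change -6.37, SE 1.44, adjusted p = 0.0242). ak7a fell by 6.10 and dnah3, with 183 counts in the ocean and 2 at spawning, was 87.6-fold lower (95% exact interval 23.9 to 729, counting error only). spag17, ak7b, dnaaf2 and cfap221 fell by 3.96 to 4.64. All 11 had also fallen in the testis, where 95.3% of members did. So had 44.6% of the genes that fell in male head kidney and were tested in both tissues. dnah9 itself, at a log2 fold change of -5.04, had an adjusted p of 0.228.

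From river to spawning 19 male head kidney members fell and 1, spata13, rose by 2.51 (adjusted p = 0.04625), against 4.92% and 4.3% of all genes. The counts of calls moved with single fish. Without ocean male 6 and river male 5 together 2 members were called from ocean to spawning and 7 from river to spawning. Leaving out ocean male 1 also gave 2 from ocean to spawning, and leaving out spawning male 7 gave 2 from river to spawning. DESeq2 called 43 and 62, but the shares of all genes above are those of edgeR, and those of DESeq2 are not given here. Between ocean and river no member was called in either sex by edgeR, where 0.117% of all genes were called in females and 0% in males, with 19 and 2 members at an unadjusted p under 0.05, and DESeq2 called 6 and 0. No member differed between the sexes in its change or in its average over the stages (edgeR, 3 and 7 members at an unadjusted p under 0.05, and 0 by DESeq2), where 0% and 0.0523% of all genes were called.

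In muscle most axonemal genes were too low to test: 44 members passed the filter in females and 57 in males, and in females no radial spoke gene, doublet inner protein, nexin-dynein gene or transition zone gene did. Of the IFT genes 9 of 10 were tested in females, and of the outer arm genes 6 of 10. In females 11 rose and 10 fell from ocean to spawning, against 25.8% and 24.7% of all genes. In males 5 rose and 13 fell, against 20.2% and 20%. Shared between the sexes were 5 that rose (ift57, ift88, spag7, spata5l1 and ttc27) and 6 that fell (cfap418, dnah5l, ift122, ift46, spata20 and spef2), and none was called in opposite directions. These are 11.9% and 14.3% of the 42 members tested in both, beside 16.6% and 14.8% of all genes tested in both, so the members' shares were not above the background.

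ift88 was at 5.09, 6.08, 4.35 and 5.79 CPM in ocean females and at 14.9, 29.4, 23.6 and 8.72 CPM at spawning (log2 fold change 1.84, SE 0.33, adjusted p = 4.94e-04). In males it went from 5.00, 3.81, 3.58 and 3.64 CPM to 10.6, 17.5 and 11.1 CPM (1.70, adjusted p = 0.00323). ift46, of the same anterograde complex, went the other way, from 3.91, 3.39, 3.37 and 3.05 CPM to 0.140, 0.701, 0.336 and 1.48 CPM in females (-2.38, adjusted p = 0.001615) and by -1.70 in males. dnah5l fell in both sexes, by 2.84 and 3.76, while dnah9l rose in females from 19.95, 33.3, 26.4 and 28.6 CPM to 79.5, 59.1, 50.5 and 97.0 CPM (1.40, adjusted p = 0.00866). In males dnah9l went from 17.2 to 24.4 CPM in the ocean to 42.3 to 75.2 CPM at spawning, which was not called (adjusted p = 0.112). spata20 fell by 1.35 and 2.07 and spata5l1 rose by 1.74 and 2.14 in females and males. The muscle marker sum fell alongside, from 73520 to 105600 CPM to 26330 to 71960 CPM in females. Most of that sum was atp2a1l, at 65808 to 93768 CPM in the ocean and 26009 to 69018 CPM at spawning. The markers did not all move together: myl1 and tnnt3a were also lower, but neb went from 0.470 to 3.22 CPM to 19.4 to 80.2 CPM. In males the germ cell marker sum was also lower at spawning, at 3.29 to 5.04 CPM against 13.2 to 28.0 CPM in the ocean. sycp1 was at 0.726, 7.32, 2.82 and 11.3 CPM in the 4 ocean muscles, at 10.9 CPM in river fish 5 and at 0 in all 3 spawning muscles. Ocean fish 3 and 9 were the highest pair for 16 of 25 axonemal genes tested in male muscle, and river fish 5 was the highest river fish for 17 of 25. Genes such as drc3, at 0.970, 1.88 and 1.24 CPM in these fish and at most 0.276 CPM in the others, passed the filter mainly through them. The filter thus partly set these counts. The part of muscle or germ cell content in the members' differences was not tested.

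River male 6 differed from the other river muscles. Its dnah9l was at 102 CPM, where the other 4 were at 8.32 to 14.4 CPM, and its spag7 at 319 CPM, where they were at 81.6 to 106 CPM. Its ift46, at 0.459 CPM, lay below theirs, at 2.61 to 3.32 CPM, and these values were nearer to those of spawning males. Without that fish 27 members were called between ocean and spawning and 25 between river and spawning, where 18 and 8 were called with it (8.36% of all genes rose and 14.9% fell in the latter). Without spawning male 8 the counts were 6 and 2. In females 11 rose and 12 fell from river to spawning (24.9% and 23.5% of all genes), among them ttc23, by 2.59. No member was called between ocean and river by edgeR (0.0415% of all genes in females, 0.145% in males, 6 and 7 members at an unadjusted p under 0.05, and 2 and 1 called by DESeq2). The split of the muscle calls depended on scaling: by library size 18 rose and 3 fell in females and 20 and 6 in males, when the median of all genes itself moved to 0.76 and 1.18.

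The sexes differed on average over the stages in 2 of 63 muscle members, where 0.295% of all genes were higher and 0.333% lower in females. odf3l2b was lower in females (-1.66, adjusted p = 0.0418) and the rare dnah9, named here after its values were seen, was higher (3.56, adjusted p = 0.0340). Ocean female 2, with the highest dnah9 (1.49 CPM), also had the highest renal tubule marker sum of the female muscles, 41.2 CPM against 1.09 to 6.81 CPM in the others, and its part was not tested. No member was called without that library, nor without any one of ocean males 3 and 9, river females 7 and 9, spawning female 2 and spawning males 7 and 8. No member differed in its change from ocean to spawning (edgeR, 5 members at an unadjusted p under 0.05, 0 called by DESeq2, and 0.0506% of all genes called).

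Some members could not be followed. ropn1l, a protein of the sperm fibrous sheath and radial spoke in mouse, had 2 counts over all 76 libraries, and tekt3 had 56. Neither entered a fit. In the testis ttc22 and odf3l2b were not tested either, at up to 1.31 and 0.371 CPM. Of all members, 41 were tested in all 6 combinations of tissue and sex.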

How the data were processed

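The files hold expected counts per gene, estimated from reads and deposited by the authors as 1 table per sex. The submitters' processing notes list Salmon (1.8.0), R (4.3.3) and Trim Galore (0.6.4), with no role given. Genome build and annotation are not given in the sources used here, so no coordinates or sequences are printed. Of the values 36.4% were not whole, and all were rounded. Libraries of 12719694 to 29286325 counts were grouped by the labels' stage, sex and tissue. The labels number the fish but do not describe sampling further, so p-values measure the spread between these fish.

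Each tissue and sex was fitted over its 3 stages with edgeR 4.0.16 (R 4.3.3, limma 3.58.1) by the quasi-likelihood test after filterByExpr and TMM scaling. Sexes were compared in joint fits. Benjamini-Hochberg adjusted p under 0.05 over all genes was a call. DESeq2 1.42.0, other scalings, no filter, fits of 2 stages, the fish number as a block and leaving out each library were alternatives. The stage fits were tested on simulated data, with the same spread between fish set for every gene. That setting does not cover the wider spread of the members in ovary and head kidney. Genes were named by a rule: the 5 largest called changes per direction (3 in other comparisons, 2 per role) at an average log2 CPM of at least 0, key axonemal and transport genes, and the most abundant members. Members and lists were chosen with earlier results of these data known. No sample was left out of the main comparisons.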

Additional observations from a re-analysis of the deposited data

Results flagged for a closer look

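In groups of 4 to 10 fish, a value far from the others is listed below. About 1 group in 20 would give one by chance, and 170 groups were checked.

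The summed level stood apart in river female head kidney fish 1 (1209 CPM), river male muscle fish 6 (830.4) and spawning female muscle fish 3 (714.2). In female head kidney hydin was high in river fish 1 (18.3 CPM) and spag6 in ocean fish 7 (18.8 CPM). In male head kidney spawning fish 9 was high for hydin (1.87 CPM) and dnah10 (0.602 CPM), and river fish 5 for dnah3 (12.4 CPM). In male muscle river fish 6 was high for dnah9l (102 CPM) and spag7 (319 CPM) and low for ift46 (0.459 CPM), and ocean fish 1 was high for ift88 (5.00 CPM).

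In testis spawning fish 10 was high for ak7b (1.04 CPM), dnai2b (0.548 CPM) and dnah9 (4.81 CPM), and river fish 4 for dnah9 (13.3 CPM). spata1 was high in ocean fish 8 (2.91 CPM) and low in spawning fish 6 (0.714 CPM). spata13 was high in ocean fish 3 (16.0 CPM) and in spawning fish 9 (2.12 CPM).

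The change from ocean to spawning differed between testis and ovary, by the interaction term of the joint edgeR fit, in 101 members. The difference in log2 fold change, testis minus ovary, was -11.14 for dnaaf1, -10.85 for zmynd10, -10.38 for ak7b, 2.27 for dnah9l, 2.24 for spag7 and 2.04 for spata1.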

How the results depend on the processing

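The members called between spawning and the ocean or the river in testis, and between testis and ovary, kept within 1.5 times their counts under every alternative run. Other counts moved. By library size alone 21 members were called in testis from ocean to river, 10 and 11 in ovary to spawning from ocean and from river, 2 and 13 in female and male muscle from ocean to river, and 5 in male muscle from river to spawning. With no filter on low counts 22 were called in testis from ocean to river and 1 in female head kidney from river to spawning. With only the compared stages fitted the counts were 67 in testis from ocean to river, 1 in female head kidney from river to spawning, 7 and 13 in male head kidney to spawning from ocean and from river, and 4 in male muscle from river to spawning. DESeq2 called 7 and 6 in female head kidney (spawning and river against ocean), 43 and 62 in male head kidney (spawning against ocean and river), 2 and 1 in female and male muscle from ocean to river, 13 in male muscle from river to spawning, and 4 for the muscle sex average. Without ocean male 6 and river male 5, a choice made after seeing the data, male head kidney had 2 and 7. The shares of all genes that DESeq2 called are not given here, and the cause of these shifts was not tested.

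Leaving out single libraries gave 15 to 58 members in testis from ocean to river, 4 to 9 in ovary from ocean to spawning, 1 to 6 and 1 to 2 in female head kidney and 2 to 20 and 2 to 30 in male head kidney (to spawning from ocean and from river), 6 to 27 and 2 to 25 in male muscle likewise, and 0 to 2 for the muscle sex average. The summed level after TMM scaling was 289.3 and 330.3 in ocean male and female muscle, 523.6 and 498.9 in spawning male and female muscle and 41760 in river testis. Without the most abundant member of each tissue it was 128.4 and 156.5 in ocean male and female muscle, 277.7 in river female muscle, 327.5 and 334.7 in spawning male and female muscle and 315.3 in spawning male head kidney.

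Fish numbers recur across stages, but some belong to a male in the ocean and a female in the river, or the reverse. The stages are different fish, so the numbers were not taken to pair them. Of 27 same-numbered pairs 8 had deviations correlated above 0.1 (r from -0.61 to 0.75). With the number as a replicate block 8 members were called in testis from ocean to river, 3 and 0 in ovary, 0 and 0 in either head kidney, 7 and 0 in female muscle (to spawning from ocean and from river) and 0 in male muscle from river to spawning. Under the block the log2 fold change from ocean to spawning was -0.036 for dnah9l in testis and 2.68 for dnah9 in male head kidney, neither called without it.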
